A study of Homo sapiens with 4 samples.

Results

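The genes described here are 8 components of the phosphoinositide 3-kinase (PI3K) and AKT pathway: the catalytic subunit genes PIK3CA and PIK3CB, the regulatory subunit genes PIK3R1 and PIK3R3, the kinase genes AKT1 and AKT2, and the phosphatase genes PHLPP1 and INPP4B. They were found by matching the Ensembl identifiers of the count tables, without version, to these symbols in GENCODE 29, and are 8 of the 60483 gene identifiers in each table. All 8 passed the filter on low counts and were among the 20325 genes tested. RNA was sequenced from C4-2, a subline of the human prostate cancer line LNCaP, in 2 enzalutamide-resistant libraries (C4-2-ENZ) and 2 control libraries (C4-2-CON). Enzalutamide blocks the androgen receptor. Cells were cultured with the drug (C4-2-ENZ) or without it (C4-2-CON) for 1 month, at passages 20 to 30 in all libraries. The labels give no vehicle for the controls and do not say whether the resistant cells are 1 clone or a pool. Drug and resistance go together in C4-2-ENZ and cannot be told apart. The growth protocol, the same for every library, names RPMI medium with serum and also FGF-2, and does not say which cells received FGF-2.

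Class I PI3K is a dimer of a catalytic and a regulatory subunit. It is recruited to activated receptors and phosphorylates a membrane inositol lipid, which in turn brings AKT to the membrane to be activated. INPP4B removes a phosphate from a lipid derived from the PI3K product, and PHLPP1 dephosphorylates AKT itself. The pathway is often activated in prostate cancer. INPP4B and FKBP5, which encodes a scaffold that brings PHLPP to AKT, are known as androgen-induced genes in prostate cells.

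Gene counts totalled 45033885 and 39047453 in the C4-2-ENZ libraries, against 25589724 and 29866008 in the C4-2-CON libraries. Levels are given as CPM, counts scaled to a common library size with the trimmed mean of M-values (TMM). The log2 fold change of C4-2-ENZ over C4-2-CON is written log2FC, and a gene was called at a Benjamini-Hochberg adjusted p below 0.05 in edgeR's quasi-likelihood test over all genes tested. Of 10 prostate luminal markers, 7 were called higher and 2 lower in C4-2-ENZ cells, beside 33% and 31.7% of all tested genes. The luminal markers summed to 4633 and 4639 CPM in C4-2-ENZ, against 3241 and 3268 CPM in C4-2-CON. Markers of other cell types were low beside the luminal ones. The basal markers summed to 2.012 to 2.292 CPM in C4-2-ENZ against 0.392 to 0.5453 CPM in C4-2-CON. Among the basal markers, TP63 had 94 and 89 counts in C4-2-ENZ against 0 and 1 in C4-2-CON. KRT15 went the other way, with 0 and 4 counts in C4-2-ENZ against 11 and 10 in C4-2-CON. The fibroblast markers summed to 8.685 to 9.208 CPM in C4-2-ENZ against 8.977 to 11.12 CPM in C4-2-CON. Endothelial markers summed to 3.136 to 3.65 CPM in C4-2-ENZ against 4.312 to 4.782 CPM in C4-2-CON, leukocyte markers to 1.058 to 1.351 against 1.636 to 1.746 CPM, and neural stem markers to 2.774 to 2.8 against 4.195 to 5.381 CPM. Some sums hide a split. The endothelial marker KDR was called higher, with 24 and 13 counts in C4-2-ENZ against 0 and 1 in C4-2-CON, and VWF was called lower. Of the fibroblast markers, COL3A1 was called higher and COL1A1 lower. KRT5, COL1A2 and CD3E had no count in any library.

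The promoters of 3 of the genes are shown because these genes rose under every setting tried: PIK3CA and PIK3R3, which had the smallest and the largest rise among the 4 PI3K subunit genes, and INPP4B. Each line gives the 250 bases before the RefSeq start nearest to the GENCODE 29 gene start, 5′ to 3′ on the gene's strand, from RefSeq on GRCh38.p14. The windows are chr3:179148107-179148356 on the plus strand for PIK3CA, chr1:46133037-46133286 on the minus strand for PIK3R3 and chr4:142846302-142846551 on the minus strand for INPP4B. Capitals mark a match to any of 3 motifs, which were searched on both strands and do not contain one another. One was the forkhead motif TGTTTAC. Another was TGTTCT, the core of the androgen response element. The last was the AP-1 motif TGANTCA.
PIK3CA: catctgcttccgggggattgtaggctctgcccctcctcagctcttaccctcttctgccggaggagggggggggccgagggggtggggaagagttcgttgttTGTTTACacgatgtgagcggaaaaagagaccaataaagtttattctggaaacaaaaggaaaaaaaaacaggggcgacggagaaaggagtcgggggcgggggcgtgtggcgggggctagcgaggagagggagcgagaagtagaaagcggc
PIK3R3: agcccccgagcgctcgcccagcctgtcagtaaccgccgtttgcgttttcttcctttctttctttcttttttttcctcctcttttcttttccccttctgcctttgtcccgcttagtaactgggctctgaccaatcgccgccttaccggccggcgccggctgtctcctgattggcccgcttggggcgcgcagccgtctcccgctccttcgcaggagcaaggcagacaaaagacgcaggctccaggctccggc
INPP4B: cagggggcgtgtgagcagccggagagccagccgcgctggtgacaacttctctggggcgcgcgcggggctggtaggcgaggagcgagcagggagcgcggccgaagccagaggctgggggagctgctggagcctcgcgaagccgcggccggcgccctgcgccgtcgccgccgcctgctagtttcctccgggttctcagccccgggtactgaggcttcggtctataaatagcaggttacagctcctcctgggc
The PIK3CA window held 1 forkhead match, 149 bases before the start, and the PIK3R3 and INPP4B windows held no match to any of the 3 motifs. The GC content was 57.6% for PIK3CA, 60.4% for PIK3R3 and 70.8% for INPP4B, against a median of 58% over 35114 windows of the same length. The 8 genes had 24 RefSeq windows, since most have several starts, and all 8 were matched. A forkhead match stood in 1 of the 24, against 2.98% of all windows. The androgen response core stood in 4 of the 24, against 12.4% of all windows, and 2 of those 4 hold the same site, 15 bases before one PIK3R3 start. No window of the 8 genes held the AP-1 motif, which 6.57% of all windows held. The GENCODE 29 start of PIK3CA lies inside its window, 243 bases before the RefSeq start, so the forkhead match is downstream of it. The GENCODE 29 start of INPP4B lies upstream of its window, 1131 bases before the RefSeq start. Gene-level counts do not show which start was used.

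All 8 genes were higher in C4-2-ENZ than in C4-2-CON cells, by between 1.118-fold and 2.055-fold, and their median log2FC was 0.71, against -0.02 over all genes tested. Each was called higher, where 33% of all tested genes were called higher and 31.7% lower. In each, both C4-2-ENZ libraries lay above both C4-2-CON libraries, which held for 40.4% of all tested genes, while the opposite held for 40.9% of them and for no member. The 4 PI3K subunit genes and INPP4B rose most, and AKT1, AKT2 and PHLPP1 least. PIK3R3 was the only member called at least 2-fold higher, where 7.58% of all tested genes were, and no member was called at least 2-fold lower, where 10.1% were. In bulk RNA, a change in the number of cells of a kind cannot be told apart from a change in RNA per cell.

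**Figure D1:**
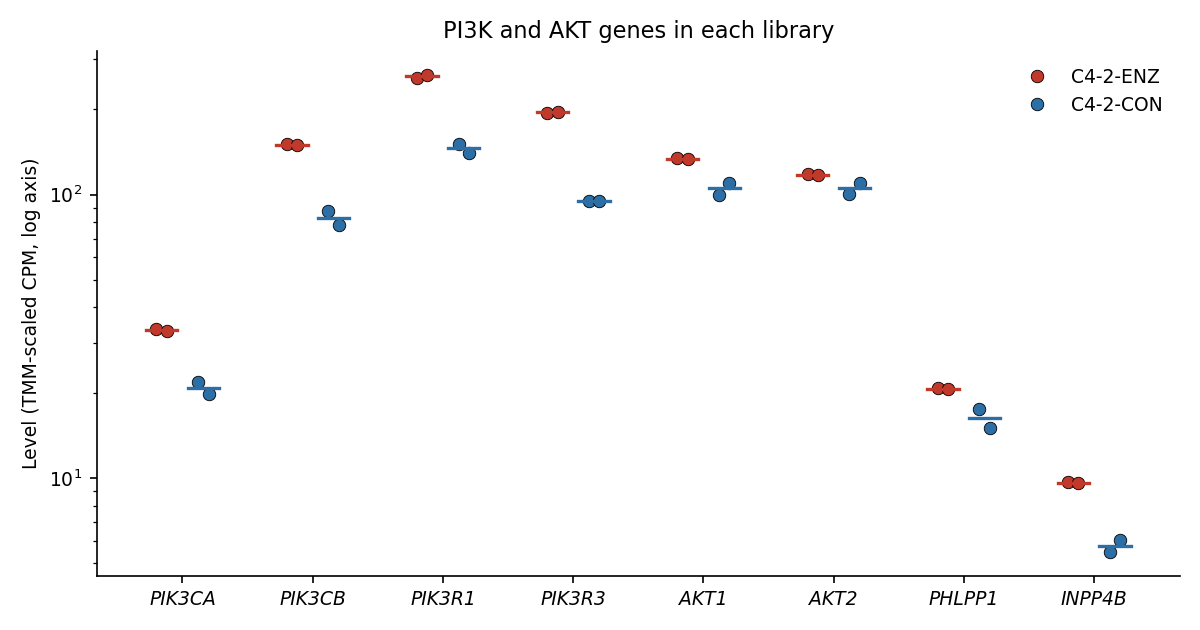
Level of each gene in each library, in TMM-scaled CPM on a log axis, with C4-2-ENZ in red left of C4-2-CON in blue. Points are libraries and bars are means of 2. The red points lie above the blue ones for every gene, with the narrowest gap for AKT2.

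PIK3CB, on chromosome 3 at 138652699 to 138834938 (GRCh38), encodes the catalytic subunit p110beta, which can be activated downstream of G protein-coupled receptors. It had 150.5 and 149.4 CPM in C4-2-ENZ libraries, against 87.88 and 78.15 CPM in C4-2-CON libraries. The groups did not overlap, and the log2FC was 0.85 (SE 0.0535, edgeR adjusted p = 5.5e-08). PIK3CA, on chromosome 3 at 179148114 to 179240093, encodes p110alpha, the catalytic subunit most often mutated in cancer. It had 33.7 and 33.05 CPM in C4-2-ENZ, against 21.86 and 19.74 CPM in C4-2-CON, with log2FC 0.69 (SE 0.0637, edgeR adjusted p = 1.73e-06). Of its exonic bases, 35.8% are shared with KCNMB3 on the opposite strand, so reads there may have been set aside or assigned to either gene. Reads that HTSeq set aside as ambiguous were 8.05% to 8.07% of gene-assigned and ambiguous reads in C4-2-ENZ and 10.4% to 11.3% in C4-2-CON, and their part in the PIK3CA difference was not tested.

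The regulatory subunits stabilise the catalytic ones and dock them to phosphotyrosines. PIK3R1, which encodes p85alpha and shorter forms, lies on chromosome 5 at 68215720 to 68301821. It had 258 and 265 CPM in C4-2-ENZ, against 151.4 and 140 CPM in C4-2-CON, the highest CPM of the 8 genes in every library. It rose with log2FC 0.84 (SE 0.0449, edgeR adjusted p = 1.36e-08). PIK3R3, which encodes p55gamma, lies on chromosome 1 at 46040140 to 46133036. It had 194.7 and 195.5 CPM in C4-2-ENZ, against 95.14 and 94.79 CPM in C4-2-CON, and libraries of a group differed by under 1 CPM. Its log2FC was 1.04 (SE 0.0397, edgeR adjusted p = 8.64e-10), and 7.21% of all tested genes had a larger one. Of its exonic bases, 17.4% are shared with AL358075.4 on the same strand.

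INPP4B, on chromosome 4 at 142023160 to 142847432, encodes an inositol polyphosphate 4-phosphatase described as a brake on AKT signalling in prostate epithelium. It was the gene with the lowest CPM of the 8, with 466 and 399 counts in C4-2-ENZ and 131 and 170 counts in C4-2-CON. These came to 9.664 and 9.626 CPM in C4-2-ENZ, against 5.495 and 6.058 CPM in C4-2-CON. It rose with log2FC 0.73 (SE 0.0904, edgeR adjusted p = 2e-05), and 13.3% of tested genes had a larger one. PHLPP1, on chromosome 18 at 62715450 to 62980433, had 20.82 and 20.55 CPM in C4-2-ENZ, against 17.53 and 15.04 CPM in C4-2-CON, with log2FC 0.35 (SE 0.074, edgeR adjusted p = 0.00136). With an offset for exonic length and GC content, the PHLPP1 value became -0.04 (adjusted p = 0.624).

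The AKT kinase genes, with PHLPP1, differed least between the groups. AKT1, on chromosome 14 at 104769349 to 104795751, had 134.3 and 133.8 CPM in C4-2-ENZ, against 100 and 110.3 CPM in C4-2-CON. Its log2FC was 0.35 (SE 0.0496, edgeR adjusted p = 6.77e-05), and it turned to -0.21 (adjusted p = 0.000119) with the length and GC offset. AKT2, on chromosome 19 at 40230317 to 40285536, had 117.9 and 117.5 CPM in C4-2-ENZ, against 100.4 and 110 CPM in C4-2-CON. Its log2FC was 0.16 (SE 0.0488, edgeR adjusted p = 0.0127), and it turned to -0.35 (adjusted p = 9.62e-07) with that offset. AKT2 was also not called without C4-2-ENZ replicate 1 (adjusted p = 0.0728) or replicate 2 (adjusted p = 0.0567), or with a filter of 1 CPM (adjusted p = 0.0606). A direction for AKT1, AKT2 and PHLPP1 thus holds only on the scale named.

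Fold changes followed gene length and GC content in these libraries. Among tested protein-coding genes, the median log2FC was -0.12 in the shortest quintile by exonic length and 0.25 in the longest, where 55.6% of genes were called higher. It was -0.18 in the quintile of lowest GC content and 0.29 in that of highest GC content. The part of length and GC content in the members' rises was examined only through the offsets. PIK3CA, PIK3R1, AKT1, AKT2, PHLPP1 and INPP4B lie in the longest quintile, and PIK3CB and PIK3R3 in the next. PIK3CA, PIK3CB, PIK3R1 and INPP4B lie in the quintile of lowest GC content, where 28.3% of genes were called higher and 50.3% lower, and AKT1 lies in the highest. With both properties in the offset, 31.1% of all tested genes were called higher and 32.5% lower. Of the 8 genes, 5 were called higher and 2 lower. The 5 were PIK3CA, PIK3CB, PIK3R1, PIK3R3 and INPP4B, which were called higher in all 13 alternative fits. Over these fits the log2FC ran from 0.47 to 1.06 for PIK3CA, from 0.68 to 1.07 for PIK3CB, from 0.62 to 1.03 for PIK3R1, from 0.85 to 1.23 for PIK3R3 and from 0.48 to 1.02 for INPP4B.

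**Figure D2:**
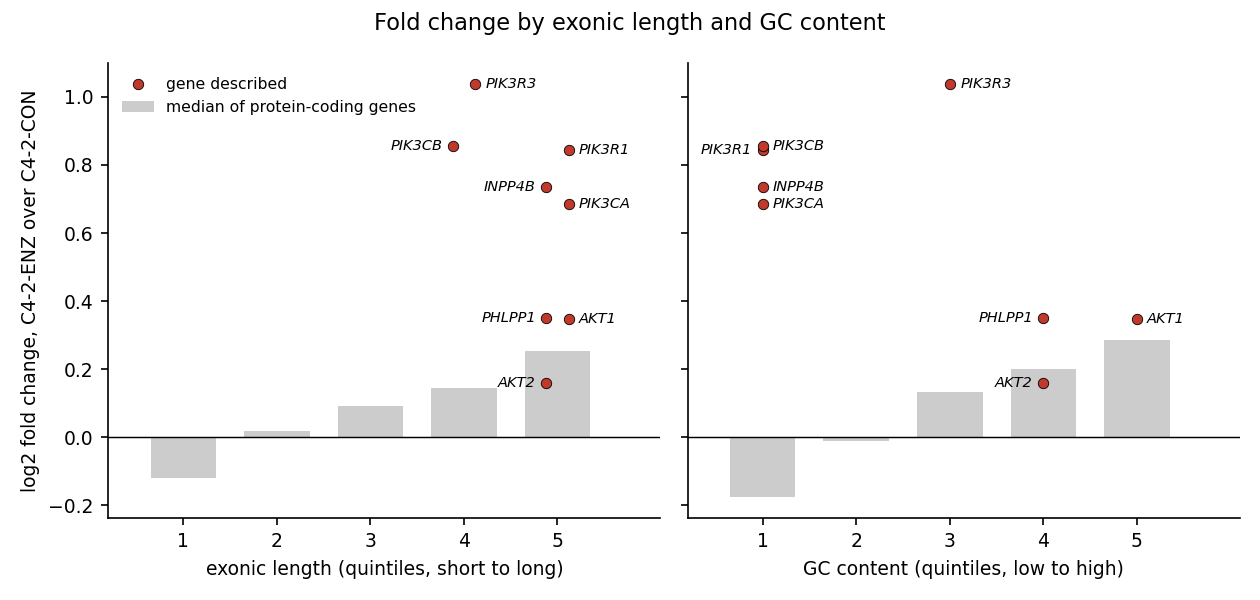
Log2 fold change of C4-2-ENZ over C4-2-CON for the 8 genes (red points) in their quintile of exonic length (left) and GC content (right); grey bars are the medians of tested protein-coding genes in each quintile. PIK3CA, PIK3CB, PIK3R1 and INPP4B stand in the lowest quintile of GC content, whose median is -0.18, and AKT1 at 0.35 stands in the highest, whose median is 0.29.

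**Figure D3:**
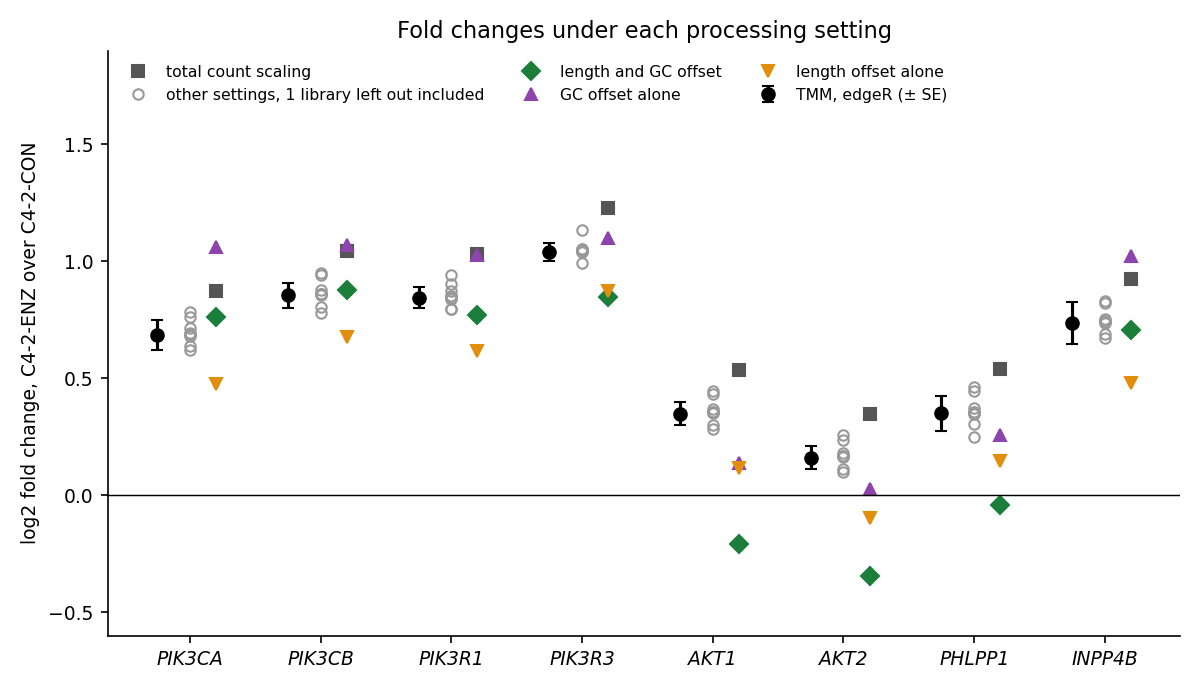
Log2 fold change of C4-2-ENZ over C4-2-CON for each gene under every setting. Black points are the TMM and edgeR values with their SE, coloured symbols are scaling and offset settings, and open circles are the other settings. With the length and GC offset AKT1, AKT2 and PHLPP1 fall below 0, and the other 5 genes stay above 0.

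Levels of different genes were compared as CPM per kilobase of exon. In C4-2-ENZ the order from high to low was PIK3R3, PIK3R1, PIK3CB, AKT1, AKT2, PIK3CA, PHLPP1 and INPP4B, from 26.33 ± 0.0738 for PIK3R3 to 0.6815 ± 0.00191 CPM per kilobase for INPP4B (SD, n = 2). Each step in that order was larger than the SD of the genes beside it. In C4-2-CON it was PIK3R1, PIK3R3, PIK3CB, AKT1, AKT2, PIK3CA, PHLPP1 and INPP4B, from 13.53 ± 0.747 for PIK3R1 to 0.4082 ± 0.0281 CPM per kilobase for INPP4B (SD, n = 2). There PIK3R1 and PIK3R3 differed by 0.717, within the SD of PIK3R1, and the other steps exceeded the larger SD. The place of AKT2 depended on the length used: per kilobase of the longest annotated transcript, it stood above AKT1, at 22.21 against 15.97 CPM per kilobase in C4-2-ENZ and 19.85 against 12.53 in C4-2-CON. On that length AKT2 in C4-2-CON also stood above PIK3R3, at 16.93, and PIK3CB, at 14.03 CPM per kilobase. In C4-2-ENZ, PIK3R1 then stood above PIK3R3, at 37.29 against 34.79 CPM per kilobase. PIK3CA and PHLPP1 also changed places in C4-2-CON on that length, at 2.287 and 2.549 CPM per kilobase, a gap within the SD of PHLPP1. INPP4B was the lowest in both groups on both lengths.

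Summed by role, the catalytic genes PIK3CA and PIK3CB reached 22.72 and 22.51 CPM per kilobase of exon in C4-2-ENZ, against 13.5 and 12.03 in C4-2-CON. The regulatory genes PIK3R1 and PIK3R3 summed to 50.24 and 50.99 in C4-2-ENZ, against 26.9 and 25.8 in C4-2-CON. AKT1 and AKT2 summed to 19.87 and 19.81 in C4-2-ENZ, against 15.64 and 17.2 in C4-2-CON. The sums were thus 1.772-fold, 1.921-fold and 1.208-fold higher in C4-2-ENZ. For each, both C4-2-ENZ libraries lay above both C4-2-CON libraries, which held for 40.4% of single tested genes. The sums carry no offset for length and GC content, and with that offset AKT1 and AKT2 were called lower (log2FC -0.21 and -0.35).

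Within a library, the ratio of related genes does not depend on the scaling of the libraries, but it carries any bias tied to length or GC content. PIK3CB exceeded PIK3CA per kilobase of exon by 5.43-fold in C4-2-ENZ and 4.83-fold in C4-2-CON. The log2 ratios were 2.433 and 2.451 in C4-2-ENZ, against 2.282 and 2.259 in C4-2-CON. Per kilobase of the longest transcript, the mean log2 ratios were 2.787 in C4-2-ENZ and 2.616 in C4-2-CON. Of the exonic bases of PIK3CA, 35.8% are shared with KCNMB3, and any effect of this on the ratio was not tested. The log2 ratio of PIK3R3 over PIK3R1 was 0.1334 and 0.1005 in C4-2-ENZ, against -0.1311 and -0.02367 in C4-2-CON, so the higher of the pair on this length was PIK3R3 in C4-2-ENZ and PIK3R1 in C4-2-CON. That crossing held per kilobase of exon only; per kilobase of the longest transcript PIK3R1 was the higher in both groups. The log2 ratio of AKT2 over AKT1 was -0.6177 and -0.6172 in C4-2-ENZ, against -0.4243 and -0.4339 in C4-2-CON. The C4-2-ENZ minus C4-2-CON differences were 0.17 for the catalytic pair, 0.19 for the regulatory pair and -0.19 for the AKT pair. Set as differences of fitted log2FC with the length and GC offset, they were 0.12 for the catalytic pair, 0.08 for the regulatory pair and -0.14 for the AKT pair, and with the GC offset alone 0.01, 0.07 and -0.11 in the same order. For each uncorrected ratio the libraries of the groups did not overlap, and the exact two-sided permutation test over the 4 libraries gave p = 0.333 for each, the smallest p that 2 against 2 libraries allow, so none can pass 0.05.

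**Figure D4:**
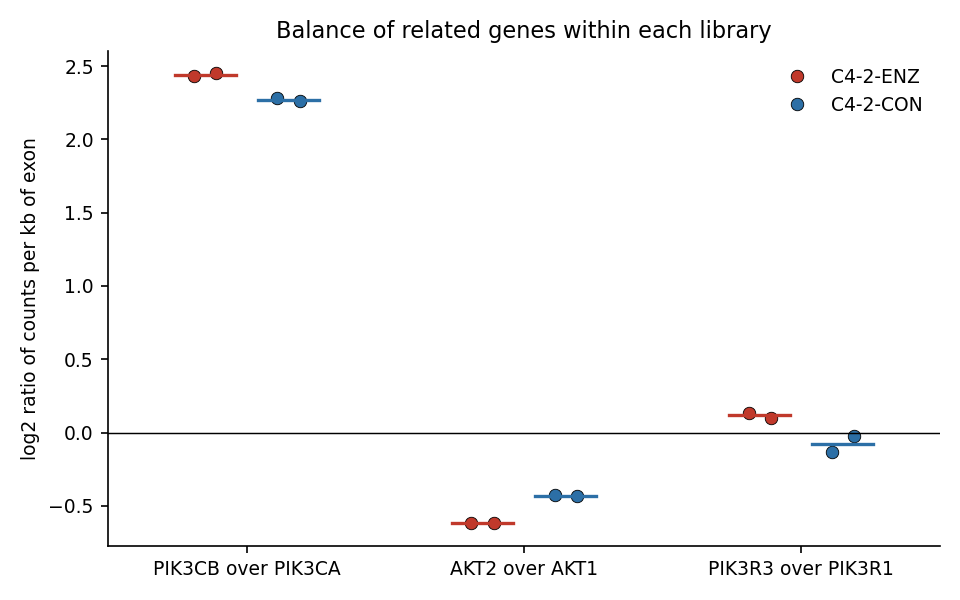
Log2 ratio of counts per kilobase of exon for 3 gene pairs in each library, with C4-2-ENZ in red left of C4-2-CON in blue and bars at the mean of 2. The catalytic and regulatory ratios are higher in C4-2-ENZ and the AKT ratio is lower, with differences of 0.17, 0.19 and -0.19.

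Paralogs, opposing enzymes and a scaffold near to these genes were described whatever their values. PIK3CD encodes p110delta, the catalytic subunit best known from leukocytes. It had 148.2 and 145.6 CPM in C4-2-ENZ, against 62.29 and 65.18 CPM in C4-2-CON, with log2FC 1.20 (edgeR adjusted p = 6.46e-10). The leukocyte markers beside it summed to at most 1.746 CPM in any library. PIK3R2, a further regulatory subunit gene, had 1.763 and 1.472 CPM in C4-2-ENZ against 1.091 and 1.497 CPM in C4-2-CON and was not called (edgeR adjusted p = 0.222), but 87.2% of its exonic bases are shared with AC007192.1 on the same strand, so its level is uncertain. PDPK1, the kinase that activates AKT, had 45.38 and 48.15 CPM in C4-2-ENZ, against 35.07 and 33.39 CPM in C4-2-CON (log2FC 0.45, edgeR adjusted p = 1.74e-05), or log2FC 0.10 (adjusted p = 0.0792) with the length and GC offset. PHLPP2, the paralog of PHLPP1, had log2FC 0.28 (edgeR adjusted p = 0.00201), or 0.01 (adjusted p = 0.897) with the offset.

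INPP4A, the paralog of INPP4B, had 30.63 and 30.64 CPM in C4-2-ENZ, against 19.09 and 20.13 CPM in C4-2-CON. Both paralogs were thus higher in C4-2-ENZ, with log2FC of 0.64 for INPP4A and 0.73 for INPP4B. With the length and GC offset, INPP4A had log2FC 0.30 (edgeR adjusted p = 0.000284), and INPP4B was still called higher. INPP5D, a phosphatase of blood cells, had at most 0.2517 CPM in any library and was not tested. FKBP5, the scaffold of PHLPP and AKT, went the other way from the 8 genes, with 37.41 and 38.36 CPM in C4-2-ENZ, against 52.9 and 53.81 CPM in C4-2-CON (log2FC -0.49, edgeR adjusted p = 2.04e-06). Among androgen-induced reference genes, 3 of 7 were higher and 3 lower, where 33% of all tested genes were called higher and 31.7% lower. TMPRSS2, a surface protease, and NDRG1 were among the higher ones, with log2FC of 0.99 and 0.66. KLK3, KLK2 and FKBP5 were lower, and KLK2, at -0.13, turned to 0.06 under total count scaling.

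The rest of the pathway was read from 10 lists, which hold 133 genes once repeats are removed. Of these, 127 were tested. Calls were higher for 65 and lower for 31, where 33% of all tested genes were called higher and 31.7% lower. The median log2FC was 0.27, beside -0.02 for all tested genes. With the length and GC offset, 55 were higher and 43 lower, where 31.1% of all tested genes were higher and 32.5% lower under that offset. The counts of each list below stand beside the same shares.

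The first 3 lists hold the enzymes of the lipid step. Of 10 tested PI3K subunits and partners beyond the 8 genes, 6 were higher and 1 lower (median log2FC 0.33), or 5 and 2 with the length and GC offset (median 0.14). PIK3IP1, an inhibitor that binds the catalytic subunit, had 33.41 and 32.4 CPM in C4-2-ENZ, against 11.03 and 10.44 CPM in C4-2-CON, a rise of 3.07-fold. PIK3C2B, a class II enzyme, had log2FC 0.43 (0.08 and not called with the offset), and PIK3C3, the class III enzyme of autophagy, had -0.12, which lost its call when any 1 of the 4 libraries was left out and turned to 0.07 under total count scaling. Of 17 phosphoinositide phosphatases, 11 were higher and 3 lower (median 0.27, or 0.10 with the length and GC offset, where 8 were higher and 5 lower). INPP5A and OCRL rose with log2FC of 0.92 and 0.52, and INPP5J had -0.38. MTMR2 and MTMR4 had -0.20 and -0.16, and MTMR4 turned to 0.03 under total count scaling. Of 11 phosphoinositide kinases, 8 were higher and none was called lower (median 0.57; 8 and 1 with the offset). The kinases called higher included PIP4K2B, PI4KB and PIKFYVE, with log2FC of 0.69, 0.61 and 0.57.

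**Figure D5:**
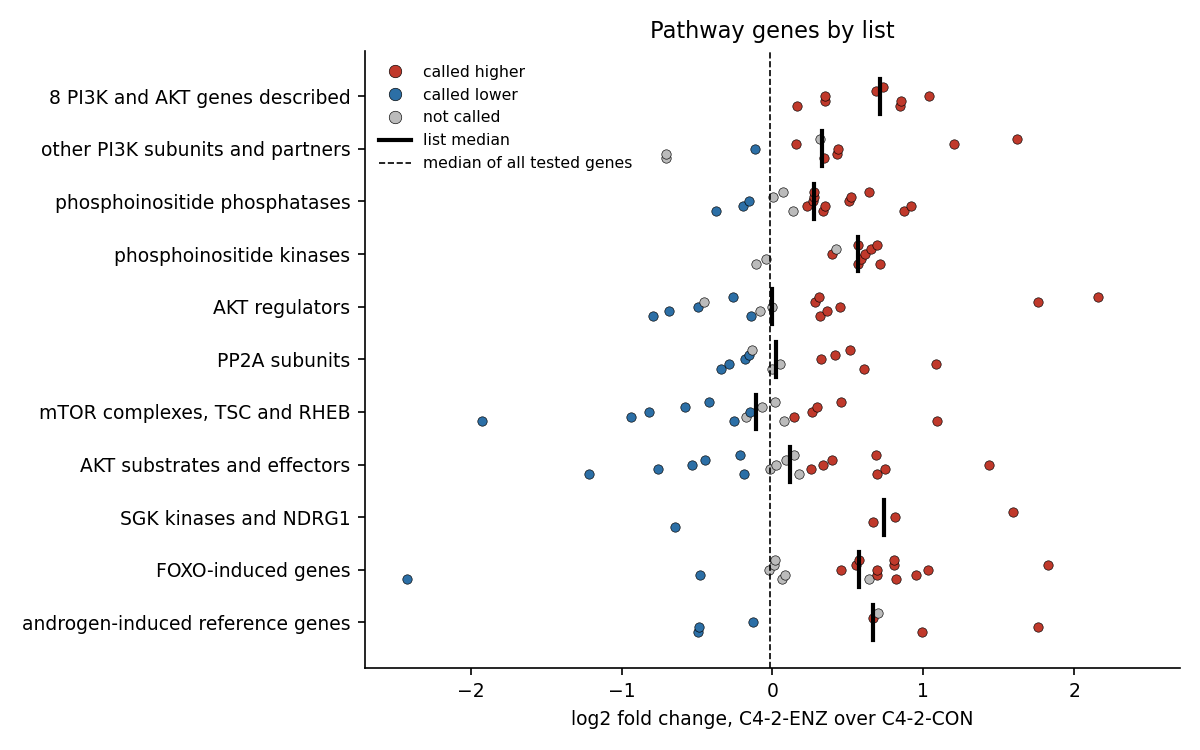
Log2 fold change of C4-2-ENZ over C4-2-CON for each tested gene of the 8 described and of 10 pathway lists. Red points were called higher, blue lower and grey not called; bars are list medians and the dashed line is the median of all tested genes. The 8 genes all lie right of the dashed line, while the mTOR list holds 5 genes called higher and 7 called lower.

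Among 15 tested regulators of AKT, 7 calls were higher and 5 lower (median -0.003), or 5 and 6 with the length and GC offset. The pseudokinase genes of the tribbles family split: TRIB2 had 32.17 and 31 CPM in C4-2-ENZ, against 7.593 and 6.628 CPM in C4-2-CON, and TRIB1 rose 3.387-fold. TRIB3, a target of ATF4 whose product is described as binding AKT, had 74.2 and 74.69 CPM in C4-2-ENZ, against 113.2 and 125.7 CPM in C4-2-CON, with log2FC -0.68. HSP90AB1, a chaperone of AKT, had log2FC 0.31, and THEM4 had -0.26. Of 12 PP2A subunit genes, of the phosphatase that also acts on AKT, 5 were higher and 4 lower (4 and 6 with the offset). PPP2CB, a catalytic subunit, rose 2.123-fold. PPP2CA, the other catalytic subunit, was called lower, with 189.8 and 186 CPM in C4-2-ENZ against 206.9 and 211.8 CPM in C4-2-CON (log2FC -0.16). Scaled by total counts alone, the PPP2CA means were 200.3 CPM in C4-2-ENZ and 195.8 CPM in C4-2-CON. PPP2R5B and the scaffold PPP2R1A rose with log2FC of 0.60 and 0.51. PPP2R2A, PPP2R5C and PPP2R1B had -0.34, -0.29 and -0.18, of which PPP2R1B turned to 0.01 under total count scaling.

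Genes of the mTOR complexes and their switch were also split, with 5 of 16 higher and 7 lower (median log2FC -0.11). With the length and GC offset 1 was higher and 11 were lower (median -0.38). RHEB, the small GTPase that activates mTOR complex 1, had 91.5 and 90.78 CPM in C4-2-ENZ, against 162.7 and 158.4 CPM in C4-2-CON, with log2FC -0.82 (edgeR adjusted p = 8.21e-09). TBC1D7, a subunit of the TSC complex that restrains RHEB, had 22.05 and 21.64 CPM in C4-2-ENZ, against 42.12 and 41.59 CPM in C4-2-CON. DEPTOR, an inhibitor bound to both mTOR complexes, rose 2.132-fold, with 56.7 and 57.01 CPM in C4-2-ENZ against 26.64 and 26.69 CPM in C4-2-CON. MLST8, a subunit of both mTOR complexes, had log2FC -0.42. RPTOR and TSC1 had 0.45 and 0.26, which turned to -0.04 and -0.11 with the length and GC offset.

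Of 18 genes for AKT substrates and effectors, 7 were higher and 6 lower (8 and 7 with the offset). FOXO3, the forkhead factor that AKT excludes from the nucleus, had 199.6 and 202.9 CPM in C4-2-ENZ, against 75.17 and 73.87 CPM in C4-2-CON, a rise of 2.701-fold (edgeR adjusted p = 1.05e-10). BAD, a death promoter, and PFKFB2, a glycolytic regulator, had log2FC of 0.69 each. RPS6, the ribosomal protein phosphorylated downstream of mTOR, had 1737 and 1726 CPM in C4-2-ENZ, against 3973 and 4068 CPM in C4-2-CON, and its reads can be shared with pseudogenes. EIF4EBP1, the translation repressor that mTOR inactivates, and MDM2 had log2FC of -0.76 and -0.45. Of the SGK kinases, relatives of AKT, and NDRG1, 3 were higher and 1 lower. SGK1 had 4.397 and 3.836 CPM in C4-2-ENZ against 2.559 and 2.174 CPM in C4-2-CON, and SGK2 had 0.7673 and 1.255 CPM in C4-2-ENZ against 0.2936 and 0.3564 CPM in C4-2-CON. SGK3 had 11.55 and 11.19 CPM in C4-2-ENZ, against 18.92 and 16.86 CPM in C4-2-CON.

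Transcripts known to be induced by FOXO factors when AKT is inhibited formed the last list. Of 19 tested, 11 were higher, 2 lower and 6 not called (median log2FC 0.57). The offset left the counts at 11 and 2, with a median of 0.38. CITED2 had 78.37 and 81.4 CPM in C4-2-ENZ, against 22.11 and 22.95 CPM in C4-2-CON. TXNIP, a regulator of glucose uptake, had 538.2 and 545.6 CPM in C4-2-ENZ, against 306.4 and 314.7 CPM in C4-2-CON. SOD2, which is also an NF-kB target, rose 2.039-fold. IGF1R, the receptor upstream of PI3K, fell to 2.012 and 2.509 CPM in C4-2-ENZ, against 11.75 and 12.37 CPM in C4-2-CON, and GADD45A had log2FC -0.48.

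The genes whose pattern over the 4 libraries was closest to that of INPP4B were found among the 9899 protein-coding genes that averaged 3 or more on the log2 CPM scale. The distance was that between log2 CPM values, each centred on the gene's own mean. They were TNFRSF14, BTG2, UNC45A, RNF40 and TUSC1, at distances of 0.00959 to 0.0245. TNFRSF14 had 15.37 and 15.39 CPM in C4-2-ENZ, against 8.767 and 9.729 CPM in C4-2-CON. With 2 libraries a group, likeness of this kind rests mostly on a similar fold change, and these genes had log2FC of 0.72 to 0.74.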

How the data were processed

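RNA of C4-2 cells was sequenced in 2 C4-2-ENZ and 2 C4-2-CON libraries. The authors deposited a table of raw gene counts for each library. The submitters' processing notes name STAR 2.5.2b, HTSeq and the build GRCh38 (hg38). How HTSeq treated strand and overlapping genes, and which annotation it used, are settings not given in the sources used here. Rows that name no gene, 5 in each table, held 55.41% and 56.87% of records in C4-2-ENZ and 74.4% and 71.08% in C4-2-CON, and were left out. Among them, records not aligned were 20.3% and 20.7% of all records in C4-2-ENZ, against 37% and 34.2% in C4-2-CON. This difference lies between the groups, and its part in the results was not tested.

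Of 60483 identifiers, 56753 matched GENCODE 29 (GRCh38), which gave symbols, positions and lengths; length is the union of exons, and GC content is that of the longest transcript. Counts were filtered with filterByExpr (minimum count 10), scaled by TMM, then fitted by the quasi-likelihood method (F test) of edgeR 4.0.16 (R 4.3.3), with group as the only term. The fit had 2 residual degrees of freedom. P-values were adjusted over all 20325 genes. The SE is the log2FC divided by the square root of F. The test was checked on simulated counts in which few genes changed and no trend with length or GC content was set. That check does not cover the trends or the many calls seen here. DESeq2 1.42.0 was an alternative. The length and GC offset used splines with 5 degrees of freedom per library, over 20122 genes.

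Counts within a pair differed by more than sampling noise (chi-square per degree of freedom 2.377 in C4-2-ENZ and 5.672 in C4-2-CON). Whether replicates were separate cultures is not in the labels; the p-values therefore cover only the spread among these 4 libraries, which may be technical. Members and lists were chosen with earlier results of these data known. Named genes were the 8 members, 9 related genes fixed by name, and from each list at most 3 called members in each direction by smallest adjusted p. PPP2CA was added beside PPP2CB as the other catalytic gene of PP2A. Some of these genes are not reported here.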

Additional observations from a re-analysis of the deposited data

How the results depend on the processing

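PIK3CA, PIK3CB, PIK3R1, PIK3R3 and INPP4B kept their direction and their call under all 13 alternatives: DESeq2 size factors, total count scaling, the DESeq2 test, no filter, a filter of 1 CPM, the replicate block, offsets for length, GC content or both, and each library left out. The offsets for GC content alone and for length alone were chosen after seeing the data. With the length and GC offset, 5 members were called higher and 2 lower, beside 31.1% and 32.5% of all tested genes. AKT1 (-0.2068), AKT2 (-0.3459) and PHLPP1 (-0.04344) changed sign. With the length offset alone, 5 members were called higher, beside 31.3% of all tested genes. AKT1 (0.1154) and PHLPP1 (0.1455) lost their call and AKT2 (-0.0978) changed sign. AKT2 lost its call with the GC offset alone (0.02715) and the 1 CPM filter (0.1131), and without C4-2-ENZ replicate 1 (0.1695) or replicate 2 (0.1789); with each library left out it ranged from 0.1002 to 0.2377. The causes were not tested, beyond what each offset removes by construction.

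Pathway list genes called lower were 31, and 17 with total count scaling and 20 with no filter. Total count scaling moved the median of all genes to 0.172 and the share of called genes that were higher to 64.4% from 51%. It turned PIK3C3 (0.07262), MTMR4 (0.03171), PPP2R1B (0.006063) and KLK2 (0.05927). PIK3C3 also turned with the GC offset alone (0.1313). The length and GC offset turned PIK3R2 (-0.04335), RPTOR (-0.03545) and TSC1 (-0.109), and the length offset alone turned TSC1 (-0.0007024).

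Replicate numbers are shared between the groups, but nothing says that they pair the libraries, and deviations of same-numbered libraries correlated at r = -0.0228. With the replicate block 6647 genes were higher and 6444 lower, against 6705 and 6443 without it, and all 8 members stayed called. With 2 libraries a group, leaving out a library moves the group mean by less than the spread between replicates, whatever the values. Leaving libraries out therefore could not test the differences between groups in the ratios of related genes. Another gene length shifts a log ratio by the same constant in every library, so it moves the ratios but not these differences. The offsets, added for the ratios after seeing the data, moved all 3. With the length and GC offset, the GC offset alone and the length offset alone, the difference was 0.1164, 0.006352 and 0.2015 for PIK3CB over PIK3CA, -0.1391, -0.109 and -0.2132 for AKT2 over AKT1, and 0.07842, 0.07231 and 0.2547 for PIK3R3 over PIK3R1. Depth limits genes of few counts, such as SGK2 (7 to 52 counts a library).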
